A study of Mus musculus with 9 samples.

Results

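The autophagy machinery was followed by RNA-seq in 3 groups of the mouse colon carcinoma line MC38, with 3 libraries per group and 9 in all. The genes were chosen by symbol: every gene named Atg with a number, Map1lc3 or Gabarap, together with 19 further genes of autophagosome formation, cargo selection and transcriptional control. This rule used no measured value, but it was chosen with earlier results of these data known. It found 42 of the 16509 genes in the deposited table, and all 42 had enough counts to be tested among 11949 genes. The Ctrl cells are labelled as given DMSO, whereas the methods of the study name PBS. The Cu-Cys cells were given copper chloride with cystine. The Cadict cells were given a nanodrug that joins copper and cystine with GOx (glucose oxidase, which consumes glucose) and carries the GE11 peptide, which binds the EGF receptor. All 3 groups are a single cell line in culture, and no source used here gives the dose or the time of treatment for these libraries. The methods speak of in vitro work in general as independently repeated and describe n in the figure legends as biological replicates. The legend for this RNA-seq gives n = 3. The labels do not say whether these replicates were separate cultures. P-values measure the spread between these libraries, and how far that spread is technical is not known.

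Macroautophagy encloses cytoplasm in a double membrane, the autophagosome, and delivers it to the lysosome. A kinase complex built on Ulk1 or Ulk2 starts the process, a lipid kinase complex marks the membrane with phosphatidylinositol 3-phosphate, and lipid transfer proteins enlarge it. Ubiquitin-like conjugation then attaches the ATG8 proteins (the LC3 and GABARAP families) to the membrane, where cargo receptors such as p62, the product of Sqstm1, bind them. TFEB and TFE3 are related transcription factors that act on lysosomal and autophagy genes.

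Each library held 17905769 to 18293060 counts. Scaling by the trimmed mean of M values (TMM) gave factors from 0.640 to 1.27, lowest in the 3 Cadict libraries, where the 100 most abundant genes took 29.8% to 31.1% of the counts against 17.2% to 17.4% in Ctrl libraries. Cadict replicate 2 stood apart from the other Cadict libraries, with a chi-square per degree of freedom of 13.8 and 21.8 against them and 3.50 between the other two. The epithelial markers Epcam and Cldn4 were listed at 0 in all Ctrl libraries and Krt8 and Krt18 had means of 0.170 and 0.0300 TPM (a deposited transcript abundance that takes length into account). Cdh1 and Krt19 were at 2.52 and 2.25 TPM in Ctrl and at 2.70 and 8.96 TPM in Cadict libraries. Under TMM both were called higher with Cadict (2.63-fold and 10.2-fold), but only 1 of the 2 under library totals and under TPM. The 7 epithelial genes in the table summed to 4.22 to 6.24 TPM in Ctrl, 3.50 to 3.95 in Cu-Cys and 11.5 to 13.3 in Cadict libraries. Of 5 fibroblast genes, led by Col1a2 and Col3a1, 4 lay above 1 TPM in every group, and their sum was 407 to 444 TPM in Ctrl, 183 to 195 in Cu-Cys and 25.0 to 31.6 in Cadict libraries. Summed leukocyte and endothelial markers did not exceed 1.37 TPM in any library. Whether these differences in scaling and marker genes have a part in the results was not tested.

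Both transcription factors among the members bind the E-box core CACGTG, and the stretches that carry this motif are shown with 3 that carry TGACNNNGC, the core of the antioxidant response element. In the RefSeq promoters on GRCm38.p6, windows from 250 bases before to 50 after a gene's start, 35 of the 42 genes had an entry, with 44 promoters. Searched on both strands, the E-box core was in 4 of these 44 promoters and in 7.15% of 32851 promoters of all genes, and TGACNNNGC was in 7 of 44 and in 12.4% of those of all genes. Capitals mark the motif in each line, which is read 5′ to 3′ on the strand of the gene.

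Atg3, chr16:45158723-45158752 (+): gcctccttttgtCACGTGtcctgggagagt
Atg3, chr16:45158746-45158775 (+): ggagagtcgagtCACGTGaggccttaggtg
Atg14, chr14:47568418-47568447 (-): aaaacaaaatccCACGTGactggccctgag
Atg5, chr10:44268313-44268342 (+): cggagcgcttgcCACGTGgtcttggtgacg
Atg7, chr6:114670952-114670981 (+): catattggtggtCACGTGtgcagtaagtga
Map1lc3b, chr8:121590432-121590461 (+): gcgagtcaccTGACTCGGCtgcggactgag
Ulk2, chr11:61855090-61855119 (-): caagacgcgcTGACGTCGCacagggccggt
Atg13, chr2:91710813-91710842 (-): cgccccacGCCGCGTCAtcagcacctcggc

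In the Atg13 line the antioxidant core lies on the opposite strand. The full CLEAR element, which contains the E-box core, was in 0 of the 44 promoters and in 0.326% of all promoters. The ATF4 and CHOP element TGATGNAA was likewise in 0 of 44 (3.97% of all promoters), as was the forkhead element GTAAACA (3.65% of all promoters). The heat shock core GAANNTTC was in 3 of 44 promoters, those of Optn, Vmp1 and Wdr45, and in 7.86% of all promoters. A match describes these letters in these windows only, and genes with the same motif differed in their response: with Cadict, the log2 fold changes were 1.23 for Atg3, 1.38 for Atg14, 0.85 for Atg5 and 0.03 for Atg7 among the E-box genes, and 2.85 for Map1lc3b, 1.50 for Vmp1, 0.91 for Tax1bp1, -1.51 for Atg13 and -2.54 for Ulk2 among the 5 genes with the antioxidant core. Stretches of Vmp1 and Tax1bp1 are not shown, since the 3 shown are from genes whose values are given for each library.

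With Cadict, all 5 ATG8 genes were called higher under TMM, led by Gabarapl1 at 10.1-fold and Map1lc3b at 7.21-fold. Under library totals and TPM 3 of the 5 were called higher, against 6.93% and 3.26% of all genes. The sizes were smaller there, with log2 fold changes for Gabarapl1 of 3.33 under TMM, 2.38 under library totals and 2.01 under TPM. Atg12 was called higher under all 4 scalings, Wipi2 under all but TPM, and Tfe3 under TMM and DESeq2 size factors. The genes for Ulk2, Atg13, Rb1cc1, the lipid kinase subunit Pik3r4 and the ATG8 proteases Atg4c and Atg4d were lower, by 2.49-fold to 6.71-fold. A gene was called when its fold change reached 2 and its adjusted p in edgeR's quasi-likelihood test did not exceed 0.001, and 17 of 42 genes (40.5%) were called higher and 8 (19.0%) lower. Over all genes tested, 20.7% were called higher and 27.1% lower, so the share of autophagy genes called higher was above the background and the share called lower was below it. The median log2 fold change was 0.27 for the 42 genes and -0.13 for all genes. Judged by an adjusted p up to 0.05 alone, whatever the fold, 22 genes were higher and 17 lower, against 40.6% and 47.1% of all genes. Cadict and Ctrl libraries did not overlap for 40 of the 42 genes, against 87.5% of all genes. Without Cadict replicate 2, 17 genes were called higher and 7 lower. As these are bulk samples, fewer cells of a type and less RNA per cell cannot be told apart.

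**Figure D1:**
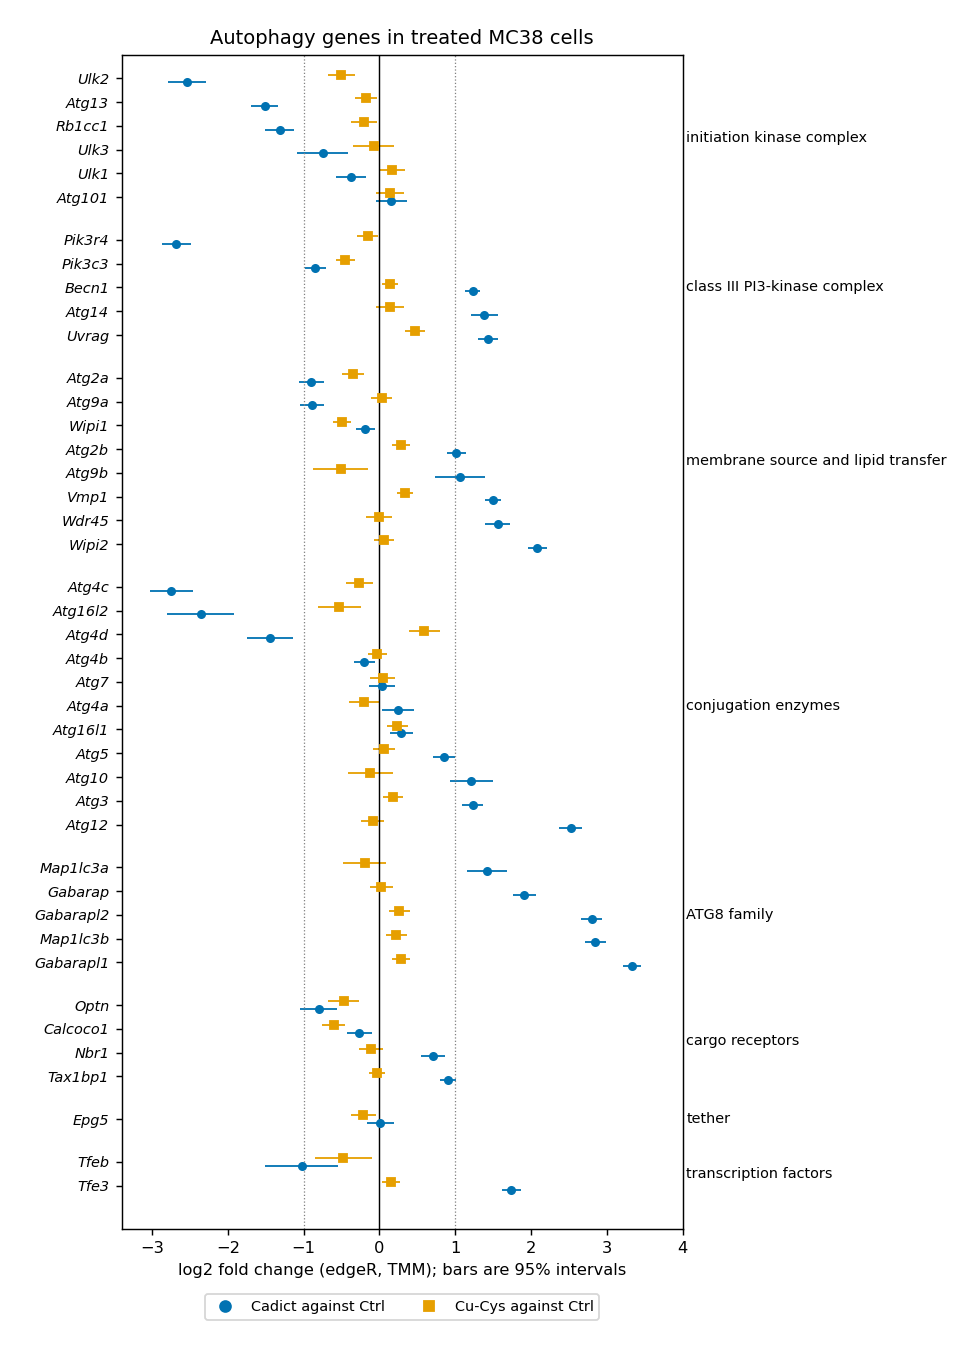
Log2 fold change of each of the 42 autophagy genes (x axis, edgeR with TMM scaling) by role, for Cadict against Ctrl (circles) and Cu-Cys against Ctrl (squares), with 95% intervals as bars and dotted lines at a fold change of 2. The 5 ATG8 genes lie from 1.42 to 3.33 with Cadict, Atg4c lies at -2.75, and no gene passes the dotted lines with Cu-Cys. The direction of 13 of the genes above 0 with Cadict turns under the scaling by TPM.

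The ATG8 genes encode the small ubiquitin-like proteins that are coupled to the autophagosome membrane and bind cargo receptors there. Gabarapl1 was at 44.7, 49.1 and 44.0 CPM (counts relative to the TMM-scaled library total) in Ctrl, at 53.8, 58.0 and 55.7 in Cu-Cys and at 463, 473 and 453 in Cadict libraries. Its 3 groups did not overlap, and the rise with Cadict was the largest among the 42 genes (log2 fold change 3.33, SE 0.0573, adjusted p = 2.2e-16). Map1lc3b, which encodes LC3B, was at 111, 117 and 121 CPM in Ctrl and at 825, 911 and 772 CPM in Cadict libraries. Gabarapl2 was at 87.2, 86.2 and 92.5 CPM in Ctrl and at 637, 658 and 561 CPM in Cadict libraries. For both genes the lowest Cadict library lay above every Ctrl and Cu-Cys library, at a log2 fold change of 2.85 (SE 0.0644) and 2.80 (SE 0.0655).

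Gabarap, the member with the most transcripts in Ctrl cells, changed less, from 163, 169 and 166 CPM to 598, 713 and 563 CPM (log2 fold change 1.91, SE 0.0722). Map1lc3a was the least abundant ATG8 gene, at 10.2, 10.3 and 9.68 CPM in Ctrl and 23.9, 34.1 and 23.0 CPM in Cadict libraries. Replicate 2 was the highest Cadict library for Gabarap and for Map1lc3a, whose log2 fold change was 1.42 (SE 0.124). All 5 genes kept a positive log2 fold change under each of the 4 scalings tried, but under library totals and under TPM neither Gabarap (0.96 and 0.58) nor Map1lc3a (0.47 and 0.07) was called.

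**Figure D2:**
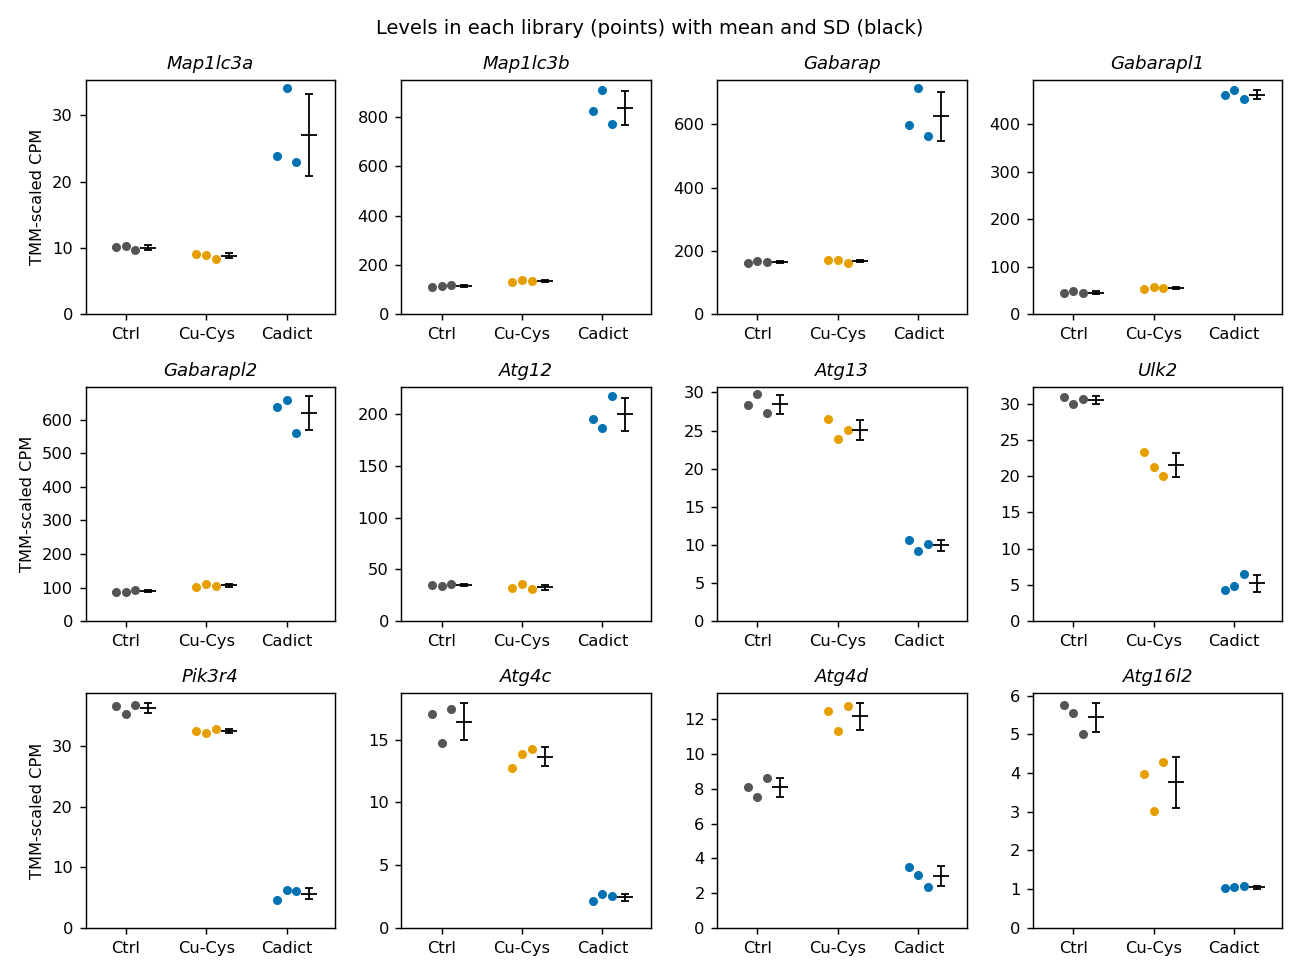
TMM-scaled CPM of 12 autophagy genes in each of the 9 libraries (points), with the mean and SD of each group of 3 in black and every y axis starting at 0. Map1lc3a, Map1lc3b, Gabarap, Gabarapl1, Gabarapl2 and Atg12 lie above every Ctrl library in all 3 Cadict libraries, and Atg13, Ulk2, Pik3r4, Atg4c, Atg4d and Atg16l2 lie below every Ctrl library there. Among these 12 genes, only Atg4d lies above Ctrl with Cu-Cys and below it with Cadict.

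The makeup of the ATG8 pool, the share of each gene in the summed TPM of the 5, does not depend on how libraries are scaled to each other. Gabarap made up 46.9% ± 0.585 (SD, n = 3) of the pool in Ctrl, 43.3% ± 1.11 in Cu-Cys and 31.5% ± 1.38 in Cadict libraries. Gabarapl2 went from 30.6% ± 1.02 to 38.1% ± 1.20 with Cadict and became the most abundant of the 5. Of its 50-base stretches, 12.2% also occur in other genes, Gm3724 first, so its counts and its share are uncertain. For Map1lc3b 5.77% of the stretches are shared. Gabarapl1 went from 7.13% ± 0.444 to 13.0% ± 0.868, Map1lc3b from 12.2% ± 0.261 to 15.9% ± 0.154, and Map1lc3a from 3.16% ± 0.139 to 1.50% ± 0.219. For each gene the Cadict and Ctrl shares did not overlap, and neither did the Cu-Cys and Ctrl shares. In a two-sided exact permutation test each of the 10 comparisons had p = 0.1 (0.1 after Benjamini-Hochberg adjustment), the smallest value that 3 against 3 libraries allow, so the shares stand as a description. The ATG8 genes together took 47.2% to 48.3% of the summed TPM of the 42 genes in Ctrl, 49.6% to 50.8% in Cu-Cys and 71.5% to 75.4% in Cadict libraries.

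**Figure D3:**
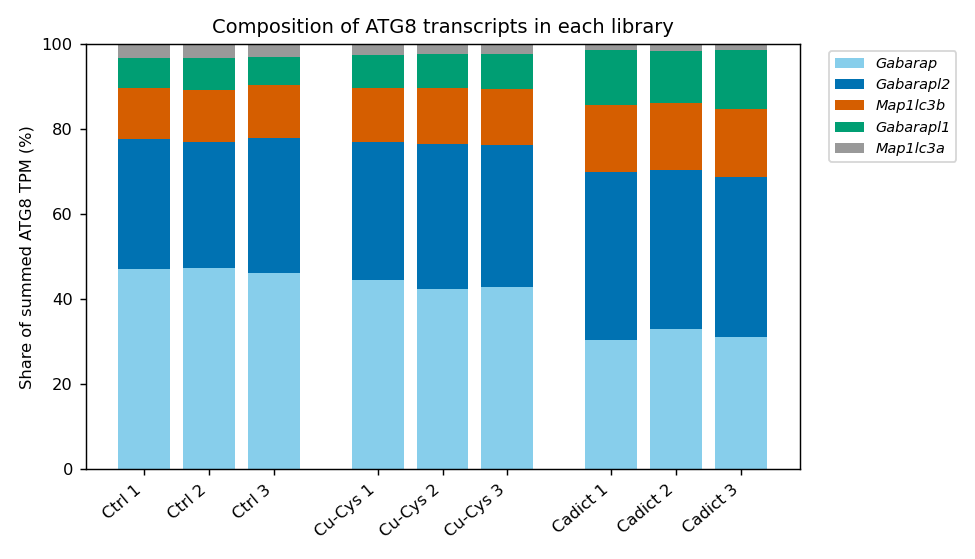
Share of each ATG8 gene in their summed TPM (y axis, percent), 1 bar for each of the 9 libraries. Gabarap takes 46.3% to 47.4% of the pool in Ctrl and 30.5% to 33.1% in Cadict libraries, and Gabarapl1 and Gabarapl2 take more.

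The conjugation enzymes attach ATG8 proteins and trim them. Under TMM 3 of 11 were called higher and 3 lower (27.3% each, against 20.7% and 27.1% of all genes). Under library totals 1 was called higher and 4 lower (6.93% and 51.5% of all genes). Atg12, the ubiquitin-like protein joined to Atg5, was at 35.3, 33.5 and 35.5 CPM in Ctrl, 31.6, 35.4 and 30.9 in Cu-Cys and 195, 187 and 217 in Cadict libraries. Ctrl and Cu-Cys overlapped and every Cadict library was far above them (log2 fold change 2.52, SE 0.0692, adjusted p = 2.2e-14). Atg3, the enzyme that passes ATG8 proteins to lipid, and Atg10, which joins Atg12 to Atg5, were called higher at log2 fold changes of 1.23 and 1.21. Atg5 (0.85) did not reach a fold of 2, and Atg7, the activating enzyme for both ubiquitin-like systems, overlapped between the groups at 0.03 (SE 0.0826, adjusted p = 0.71). Atg12 was called under each of the 4 scalings, whereas Atg3 and Atg10 lay at -0.08 and -0.07 under TPM.

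The 4 Atg4 genes encode the proteases that prime ATG8 proteins and release them from lipid, and they did not move together. Atg4c was at 17.1, 14.8 and 17.5 CPM in Ctrl, 12.8, 13.9 and 14.3 in Cu-Cys and 2.12, 2.70 and 2.52 in Cadict libraries, and its fall to a log2 fold change of -2.75 (SE 0.134, adjusted p = 1.6e-11) was the largest among the 42 genes. Atg4d was at 8.09, 7.53 and 8.59 CPM in Ctrl, 12.5, 11.3 and 12.8 in Cu-Cys and 3.48, 3.05 and 2.35 in Cadict libraries. The 3 groups were separate, with Cu-Cys highest and Cadict lowest. Atg4b, the most abundant of the 4 by TPM, lay at -0.20 (SE 0.0627) under TMM but was called lower at -1.15 under library totals and -1.42 under TPM. Atg4a gave 0.24 (SE 0.10), and 51.2% of its 50-base stretches also occur in a pseudogene, Atg4a-ps, so its counts are uncertain. The ratio of Atg4b to Atg4c by TPM went from 2.39 ± 0.198 in Ctrl to 14.9 ± 3.39 in Cadict libraries (SD, n = 3).

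The paralogs Atg16l1 and Atg16l2 also parted. Atg16l1, the scaffold that places the Atg12-Atg5 conjugate on the membrane, had a log2 fold change of 0.29 (SE 0.0707), which turned to -0.66 under library totals and -0.97 under TPM. Atg16l2 was at 5.75, 5.54 and 5.01 CPM in Ctrl, 3.97, 3.02 and 4.29 in Cu-Cys and 1.02, 1.05 and 1.09 in Cadict libraries. The last values rest on 12, 12 and 13 counts, and the fall was called (-2.36, SE 0.207, adjusted p = 2.3e-08).

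Of the 6 genes of the initiating kinase complex, 3 were called lower and 0 higher with Cadict under TMM, against 27.1% and 20.7% of all genes. Ulk2, one of its kinases, was at 31.0, 30.0 and 30.6 CPM in Ctrl, 23.3, 21.3 and 20.1 in Cu-Cys and 4.25, 4.88 and 6.55 in Cadict libraries. The 3 groups were separate and in that order, with a fall of 5.82-fold from Ctrl to Cadict (log2 fold change -2.54, SE 0.115). Atg13, the regulatory subunit, was at 28.3, 29.7 and 27.3 CPM in Ctrl, 26.5, 23.9 and 25.0 in Cu-Cys and 10.6, 9.15 and 10.1 in Cadict libraries, a fall of 2.86-fold that left no overlap. Rb1cc1, which encodes the scaffold FIP200, fell by 1.32 on the log2 scale (SE 0.0921). Ulk1 (-0.38, SE 0.0935) and the related kinase Ulk3 (-0.75, SE 0.158) did not reach a fold of 2 under TMM. Both were called lower under library totals (-1.33 and -1.70) and TPM (-1.36 and -1.52), where 51.5% and 54.2% of all genes were called lower. Atg101, which stabilises Atg13, lay at 0.16 (SE 0.0954, adjusted p = 0.13) and turned negative under library totals and TPM. The ratio of Ulk1 to Ulk2 by TPM went from 0.695 ± 0.0372 in Ctrl to 1.12 ± 0.0130 in Cu-Cys and 3.20 ± 0.415 in Cadict libraries.

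The class III lipid kinase complex split. Pik3r4, which encodes the regulatory subunit VPS15, was at 36.7, 35.3 and 36.8 CPM in Ctrl, 32.5, 32.2 and 32.9 in Cu-Cys and 4.67, 6.27 and 6.05 in Cadict libraries. No Cadict library came near the others, and the fall was 6.40-fold (log2 fold change -2.68, SE 0.0910, adjusted p = 2.4e-13). Pik3c3, the catalytic subunit VPS34, lay at -0.85 (SE 0.0644). Becn1, the scaffold shared by the complexes, had a log2 fold change of 1.23 (SE 0.0486), and Atg14 and Uvrag, alternative subunits for autophagosome formation and for endosomes, of 1.38 and 1.43. These 3 were called higher under TMM, yet were not called under library totals or TPM, where Becn1 lay at 0.27 and -0.08. The ratio of Becn1 to Pik3r4 by TPM was 5.87 ± 0.226 in Ctrl, 7.22 ± 0.261 in Cu-Cys and 88.7 ± 13.7 in Cadict libraries. Of the exon bases of Becn1, 43.9% overlap Cntd1 on the opposite strand, and whether strand was used in counting is not given in the sources used here. The same limit applies to Gabarapl1 (28.3% of its exon bases, 1700101I11Rik), Bnip3 (22.3%, Gm45507), Atg4d (19.3%, Kri1), Uvrag (17.6%, Gm45187) and Sqstm1 (17.3%, Mrnip). Exon bases of Ccpg1 (55.8%) and Atg9a (32.6%) overlap other genes on both strands.

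Among 8 genes for the membrane source and lipid transfer, 5 were called higher with Cadict and 0 lower under TMM, against 20.7% and 27.1% of all genes. Under library totals (6.93% and 51.5% of all genes) only Wipi2 was called higher, and Atg2a, Atg9a and Wipi1 were called lower. Wipi2, which reads phosphatidylinositol 3-phosphate and recruits Atg16l1, was at 59.6, 61.1 and 56.0 CPM in Ctrl, 62.5, 58.2 and 64.0 in Cu-Cys and 243, 269 and 239 in Cadict libraries. Ctrl and Cu-Cys overlapped and Cadict lay 4.25-fold above Ctrl (log2 fold change 2.09, SE 0.0608), while its paralog Wipi1 lay at -0.19 (SE 0.0572). Wdr45, a further member of that family, and Vmp1, a lipid scramblase of the endoplasmic reticulum, were called higher at 1.56 and 1.50. Of the stretches of Wdr45, 16.9% also occur in Gm45208, so its counts are uncertain. The lipid transfer proteins Atg2b and Atg2a went to 1.01 and -0.90, and the scramblases Atg9b and Atg9a to 1.06 and -0.89. In each of these pairs the log2 fold changes had opposite signs under TMM. Atg2b and Atg9b turned to -0.19 and -0.17 under TPM, but the ratio within a pair does not depend on the scaling of libraries. That of Atg2b to Atg2a went from 1.09 ± 0.0348 to 4.23 ± 0.336 with Cadict, that of Wipi2 to Wipi1 from 0.463 ± 0.0322 to 2.26 ± 0.206, and that of Atg9b to Atg9a from 0.110 ± 0.00142 to 0.430 ± 0.0724. Atg9b was a low gene, at 91 to 109 counts in Ctrl and 93 to 123 in Cadict libraries, which overlap before scaling. Atg9a shares 30.2% of its stretches with other genes, Gm29253 first, so its counts are uncertain.

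None of the 4 cargo receptors among the members was called in either direction under TMM, against 20.7% higher and 27.1% lower of all genes. Under DESeq2 size factors Tax1bp1 was called higher (1.03), and under library totals and TPM Optn (-1.75 and -1.68) and Calcoco1 (-1.22 and -1.43) were called lower. Tax1bp1 and Nbr1, which bind ubiquitinated cargo, lay at 0.91 (SE 0.0511) and 0.70 (SE 0.0744), and both turned negative under library totals and TPM. Optn, a receptor for ubiquitinated mitochondria and bacteria, lay at -0.80 (SE 0.115) and Calcoco1 at -0.27 (SE 0.0771). Epg5, which tethers autophagosomes to lysosomes, overlapped between Cadict and Ctrl libraries at 0.01 (SE 0.0831, adjusted p = 0.90).

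The transcription factors went apart. Tfe3 was at 44.9, 44.5 and 43.4 CPM in Ctrl, 53.0, 47.1 and 47.4 in Cu-Cys and 149, 145 and 151 in Cadict libraries. All Cadict libraries were above the rest (log2 fold change 1.74, SE 0.0565, adjusted p = 1.4e-13), although the rise was not called under library totals (0.79) or TPM (0.46). Tfeb was scarce, with 56 to 75 counts in Ctrl, 37 to 49 in Cu-Cys and 14 to 20 in Cadict libraries. It was called lower (-1.03, SE 0.225, adjusted p = 5.1e-04) just past the fold of 2, and with DESeq2 size factors it was not called (-0.91). The ratio of Tfe3 to Tfeb by TPM went from 11.0 ± 1.44 to 77.2 ± 12.6 with Cadict.

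With Cu-Cys alone, no autophagy gene reached a fold of 2. In the same edgeR fit 0 of 42 genes were called higher and 0 lower, against 0.167% and 1.47% of all genes, and DESeq2's Wald test also called 0. At an unadjusted p under 0.05, 11 genes were higher and 15 lower (26.5% and 26.0% of all genes). By an adjusted p up to 0.05 alone, 11 were higher (26.2%) and 12 lower (28.6%), close to the 22.6% and 22.4% of all genes, and 28 of 42 genes did not overlap, against 61.2% of all genes. The median log2 fold change was -0.031 for the 42 genes and 0.0067 for all genes.

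The genes that passed at an adjusted p of 0.05 with Cu-Cys changed by at most 1.52-fold. Calcoco1 fell furthest, from 21.0, 20.7 and 19.3 CPM to 13.7, 13.0 and 13.4 CPM (log2 fold change -0.61, SE 0.0722, adjusted p = 1.2e-05). Atg16l2 (-0.53), Atg9b (-0.51), Wipi1 (-0.50), Ulk2 (-0.50), Tfeb (-0.48), Optn (-0.47) and Pik3c3 (-0.45) were also lower. Atg4d rose most, at 0.59 (SE 0.0953, adjusted p = 1.7e-04), followed by Uvrag at 0.47, Vmp1 at 0.34 and Atg2b at 0.29. Of the ATG8 genes, Gabarapl1 (0.28), Gabarapl2 (0.26) and Map1lc3b (0.22) were higher. Map1lc3a (-0.19, adjusted p = 0.25) and Gabarap (0.02, adjusted p = 0.82) did not pass, and Gabarap turned to -0.046 under library totals and -0.13 under TPM.

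The direct comparison of Cadict with Cu-Cys asks what the complete nanodrug adds to copper and cystine, and it shares the Cadict libraries with the comparison against Ctrl. Here 15 of 42 genes were called higher and 7 lower, against 18.6% and 23.6% of all genes, with a median log2 fold change of 0.39 for the 42 genes and -0.10 for all genes. By the adjusted p alone, up to 0.05, 24 were higher and 15 lower (40.3% and 45.6% of all genes), and 38 genes did not overlap (85.0% of all genes). Gabarapl1 lay 8.29-fold, Map1lc3b 6.17-fold, Atg12 6.12-fold and Gabarapl2 5.82-fold higher than with Cu-Cys. Pik3r4 lay 5.74-fold, Atg4c 5.57-fold, Ulk2 4.12-fold and Atg4d 4.11-fold lower. Wipi1 and Calcoco1, lower with Cu-Cys than with Ctrl, were under TMM also lower than with Cadict, a direction that turned under library totals (-0.57 and -0.55) and TPM (-0.83 and -0.73). Wipi1 was at 35.9, 35.7 and 37.3 CPM with Cu-Cys against 46.9, 43.5 and 44.8 CPM with Cadict (log2 fold change 0.31, adjusted p = 1.3e-04), and Calcoco1 differed by 0.34 (adjusted p = 0.0012). Uvrag (0.97) and Atg2b (0.73) did not reach a fold of 2 against Cu-Cys. Atg101, Atg7 and Atg16l1 did not pass at an adjusted p of 0.05, with log2 fold changes of 0.02 (SE 0.0949), -0.01 (SE 0.0828) and 0.05 (SE 0.0699).

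The level of all these Cadict values depended on how the libraries were scaled. Against TMM, DESeq2 size factors moved the median of all genes by 0.12 to -0.0063 on the log2 scale, library totals by -0.95 to -1.08, and limma on the deposited TPM gave -1.13. The median of the 42 genes was 0.27, 0.38, -0.69 and -0.94 in that order. It lay above the median of all genes by 0.39 under the first 3 scalings and by 0.19 under TPM. Genes called higher and lower numbered 17 and 8 under TMM, 18 and 7 under DESeq2 size factors, 5 and 17 under library totals, and 4 and 19 under TPM. The same change moved the calls over all genes from 20.7% higher and 27.1% lower under TMM to 6.93% and 51.5% under library totals. Under TPM they were 3.26% and 54.2%. Gabarapl1, Gabarapl2, Map1lc3b and Atg12 were called higher under all 4 scalings, with log2 fold changes of 2.01, 1.47, 1.53 and 1.19 under TPM. Atg13, Atg16l2, Atg4c, Atg4d, Pik3r4, Rb1cc1 and Ulk2 were called lower under all 4. Between TMM and library totals, 8 genes turned from positive to negative, namely Atg101, Atg16l1, Atg4a, Atg5, Atg7, Epg5, Nbr1 and Tax1bp1.

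**Figure D4:**
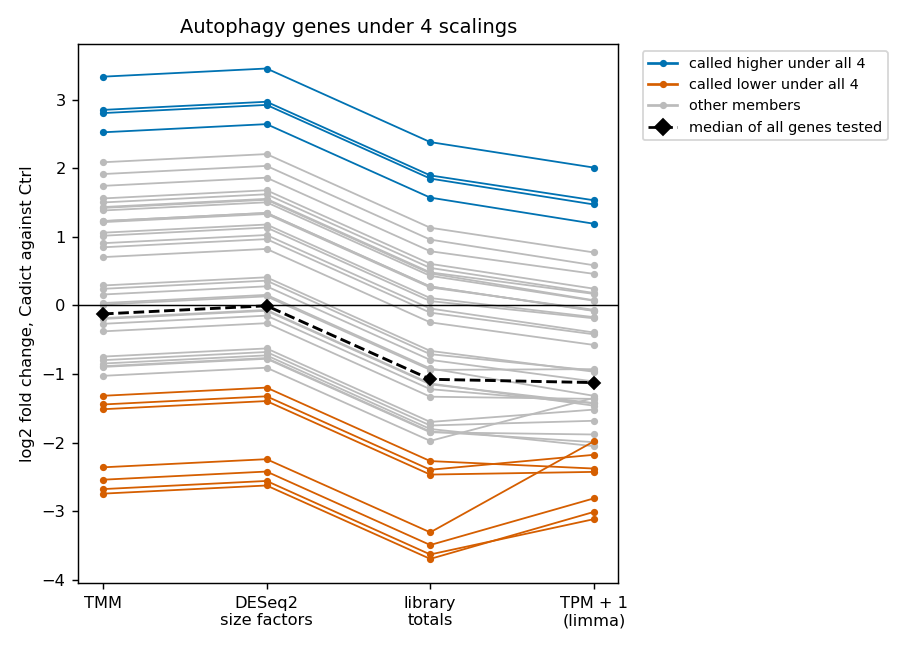
Log2 fold change of each autophagy gene, Cadict against Ctrl (y axis), under 4 scalings (x axis), with 1 line per gene and the median of all tested genes dashed. The 4 blue genes stay called higher and the 7 orange genes called lower under all 4, while the median of all genes drops from -0.13 under TMM to -1.08 under library totals, and 8 grey lines that start above 0 fall below it.

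Rises and falls with Cadict also went with the effective length of the transcript. This length is the one implied by each gene's counts and FPKM (a count divided by length and depth). It is not the full transcript length, and all lengths below are of this kind. Genes under 1000 bases had a median log2 fold change of 0.69, with 39.2% called higher, and genes from 3000 to 4500 bases had -0.42, with 13.0% called higher. Spearman's rho between length and log2 fold change was -0.21 over 10583 tested genes with a length and -0.44 over the 42 autophagy genes. With Cu-Cys, rho was -0.205 over the same tested genes and -0.189 over the 42. These are descriptions across genes that share libraries, not replicates. Gabarapl2 (647 bases), Map1lc3a (712) and Gabarap (789) fall in the shortest class, and all 3 lay above its median. Atg101 (907 bases), also in that class, lay below it at 0.16. Gabarapl1 (1440 bases), Map1lc3b (2123), Atg12 (2159) and Wipi2 (3684) were longer, with log2 fold changes of 2.09 to 3.33. Among the falling genes, lengths were 2499 bases for Atg16l2, 2648 for Atg4c, 4553 for Pik3r4 and 5521 for Ulk2. The part of length in these results was not tested.

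**Figure D5:**
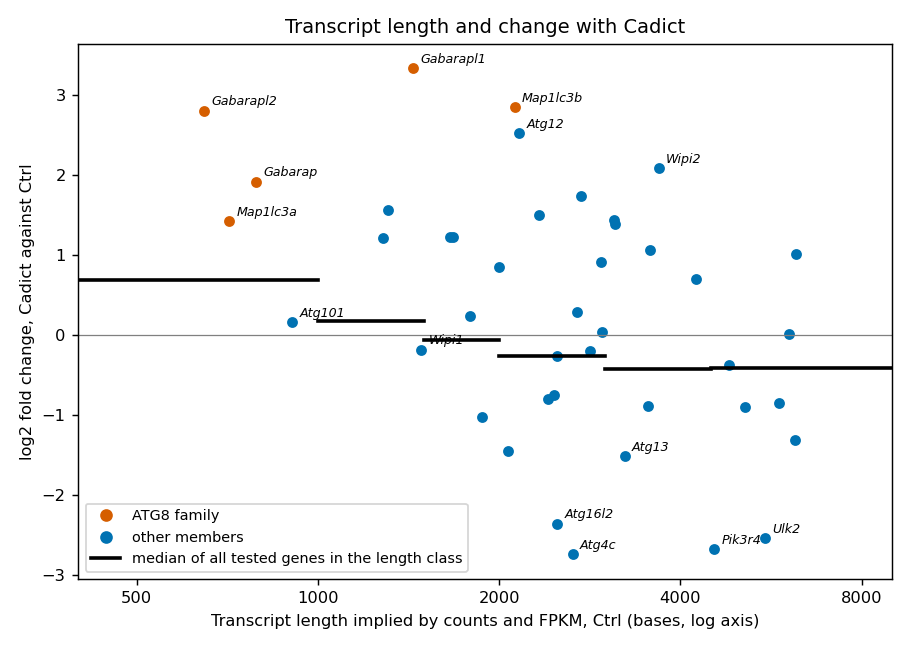
Log2 fold change, Cadict against Ctrl (y axis), against the effective transcript length implied by counts and FPKM in Ctrl libraries (x axis, bases, log scale). Points are the 42 autophagy genes, and black bars give the median of all tested genes in each of 6 length classes. The medians fall from 0.69 under 1000 bases to -0.42 from 3000 to 4500 bases, and Gabarapl1, Map1lc3b, Atg12 and Wipi2 lie more than 2 above the bar of their class.

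Beyond the 42 genes, a list of 16 other core and fusion genes had 4 called higher and 5 lower with Cadict under TMM, with a median log2 fold change of -0.35. These shares (25.0% and 31.2%) stand beside 20.7% and 27.1% of all genes. Under library totals 0 were called higher and 9 lower (6.93% and 51.5% of all genes). Wdr45b, a further gene of the WIPI family, was at 57.9, 60.6 and 61.8 CPM in Ctrl and 224, 215 and 224 CPM in Cadict libraries (log2 fold change 1.88, SE 0.0515), but it was not called under library totals (0.93) or TPM (0.56). The small GTPase Rab7, which acts in late endosome fusion, gave 1.55, and the fusion protein Ykt6 gave 1.36, and neither was called under library totals (0.60 and 0.40) or TPM. Stx17, the SNARE of the finished autophagosome, fell by 1.54 on the log2 scale, as did Nrbf2, a subunit of the lipid kinase complex. Plekhm1, an adaptor of fusion, fell by 1.53. Rubcnl held 39, 30 and 39 counts in Ctrl, 25, 23 and 26 in Cu-Cys and 0, 2 and 1 in Cadict libraries, which is at the floor of 3 counts, so no fold is given.

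Of 13 further cargo and organelle receptors that were tested, 2 were called higher and 2 lower under TMM (15.4% each), with a median of 0.30. Over all genes these shares were 20.7% and 27.1%. Under library totals 1 was called higher and 6 lower (6.93% and 51.5% of all genes). Calcoco2 had at most 4 counts in any library and was not tested. Sqstm1, which encodes p62, was at 355, 371 and 370 CPM in Ctrl, 548, 536 and 558 in Cu-Cys and 10356, 10391 and 10007 in Cadict libraries. The 3 groups were separate, with a 28.1-fold rise with Cadict (log2 fold change 4.81, SE 0.0526) and a 1.50-fold rise with Cu-Cys (0.58, SE 0.0455). By TPM it went from 461 ± 3.83 in Ctrl to 5223 ± 419 in Cadict libraries (SD, n = 3), above the sum of the 5 ATG8 genes, which was 2089 to 2182. Tollip, an adaptor for aggregated proteins, was at 49.3, 51.4 and 48.1 CPM in Ctrl and 197, 176 and 198 CPM in Cadict libraries (1.94, SE 0.0578), a call that was lost under library totals (0.99) and TPM (0.62).

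Bnip3, a mitochondrial receptor, was at 115, 98.5 and 110 CPM in Ctrl, 138, 159 and 149 in Cu-Cys and 14.7, 12.5 and 14.0 in Cadict libraries. It lay above Ctrl with Cu-Cys (0.46, SE 0.0668) and below it with Cadict (-2.97, SE 0.0882). Ccpg1, a receptor for the endoplasmic reticulum, fell from 23.7, 25.0 and 24.4 CPM in Ctrl to 18.4, 15.8 and 16.3 in Cu-Cys and 3.65, 4.88 and 4.20 in Cadict libraries (-2.52, SE 0.110). Its counts are uncertain, since 40.9% of its stretches also occur in Gm44503, as are those of Bnip3, with 16.5% shared with pseudogenes.

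Lists of genes written from general knowledge as targets of 3 regulators of autophagy are given by their counts with Cadict under TMM. They were chosen with earlier results of these data known, so their shares are a description only. Of 12 targets of ATF4 and CHOP, the factors of the integrated stress response, 8 were called higher and 0 lower, with a median log2 fold change of 1.23. Of 7 targets of TFEB, 5 were called higher and 0 lower, with a median of 1.43. Of 8 targets of FOXO3, 4 were called higher and 2 lower, Ulk2 and Bnip3, with a median of 0.52. The first 2 lists had 66.7% and 71.4% called higher and the third 4 of 8, against 40.5% of the 42 autophagy genes and 20.7% of all genes. Under library totals, where 6.93% of all genes were called higher and 51.5% lower, the counts were 4 and 0, 2 and 2, and 3 and 4, and the median of the FOXO3 list turned to -0.44. Under TPM that of the ATF4 and CHOP list turned to -0.071. Map1lc3b is on all 3 lists and Sqstm1 on 2 of them, so the counts are not independent. Apart from Vps11 and Vps18, the targets belong to the 42 genes or to the lists of other pathway genes. The counts thus regroup genes already counted, and whether a regulator acted on them was not tested. With Cu-Cys the medians were 0.10, 0.22 and 0.055, and 0 targets were called.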

How the data were processed

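Messenger RNA was sequenced in 9 libraries of 3 groups. On extraction and sequencing the sources differ, since the labels give a column kit and DNA nanoballs and the study's methods TRIzol and an Illumina instrument. The submitters' processing notes name HISAT2 2.1.0, Bowtie2 2.3.4.3, RSEM 1.3.1 and the builds GRCm39 and GRCh38.p13, with no role. The authors deposited expected counts, TPM and FPKM for each library and gene, and a signal value (counts divided by 1 size factor per library), which was not used here. Columns marked CC were read as Cu-Cys by the initials and CCGE as Cadict, an inference from its components.

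Expected counts were rounded, filtered (filterByExpr) and scaled (TMM) in edgeR 4.0.16, R 4.3.3, and 1 quasi-likelihood fit of the 3 groups gave the comparisons, adjusted by Benjamini-Hochberg over 11949 genes. Calls used the thresholds of the study. Intervals of log2 fold changes are at 95%. On simulated counts with 200 of 11949 genes changed by 3-fold, evenly up and down, all 200 were called and 0 unchanged ones. The simulation held no shift like that of the Cadict libraries, so it checks the code and not the scaling. TPM shares were compared by exact permutation. Gene pairs sharing 50-base stretches were counted in GENCODE M21 transcripts. The genes and lists were chosen with earlier results of these data known. Values per library are given for the ATG8 genes, the 6 largest rises and 6 largest falls called with Cadict, Sqstm1, and the 3 largest rises and 3 largest falls of the other pathway genes. Other genes given per library were chosen after their values were seen. Alternatives used DESeq2 1.42.0 and limma 3.58.1 (log2 of TPM plus 1 or 0.1). 1 listed gene is not reported here.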

Additional observations from a re-analysis of the deposited data

How the results depend on the processing

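Leaving out each library in turn gave 15 to 17 genes called higher and 7 to 8 lower for Cadict against Ctrl (medians 0.23 to 0.31), 15 to 16 and 6 to 7 for Cadict against Cu-Cys (0.35 to 0.41), and 0 and 0 for Cu-Cys against Ctrl (-0.043 to -0.013). The ATG8 shares kept their direction as shares of CPM and without each library. Between libraries of different groups with the same replicate number, correlations of residuals ran from -0.19 to 0.15 over 8551 genes. Mismatched numbers were not compared, so these values cannot decide whether the numbers pair the libraries. A fit with a replicate block gave 17 and 8, 0 and 0, and 15 and 7 calls, with medians of 0.27, -0.031 and 0.39. It called the same genes in the same direction (25, 0 and 22 of 42). Most of the values that moved did so with the scaling, which shifts the Cadict values of all genes, or with a looser threshold, and a few with the filter on low counts. The cause was not tested. For Cadict against Ctrl, the median was 0.38 with DESeq2 size factors and with its Wald test, -0.69 under library totals, and -0.94 and -1.05 on TPM with pseudocounts of 1 and 0.1. Genes called higher numbered 5, 4 and 4 and lower 17, 19 and 22 under the last 3, and 17 were lower at an adjusted p of 0.05 alone. For Cadict against Cu-Cys, the medians were 0.48, 0.48, -0.49, -0.66 and -0.77 in the same order and 0.30 with no filter. Those called higher numbered 6, 4 and 4 and lower 15, 17 and 18, or 24 and 15 at an adjusted p of 0.05 alone. For Cu-Cys against Ctrl, the medians were -0.0041, -0.0041, -0.10, -0.17 and -0.17, and -0.0547 with at least 10 counts in every library, and 11 and 12 genes were called at an adjusted p of 0.05 alone. Of the named genes, Gabarap against Ctrl with Cu-Cys turned to -0.0459 under library totals, -8.99e-04 with at least 10 counts, and -0.13 on TPM with either pseudocount, and Wipi2 turned to -0.00494, -0.0739 and -0.0759 under totals and the 2 pseudocounts. Low counts limit Tfeb, Atg16l2 and Rubcnl most.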
